A study of Mus musculus with 9 samples.

Results

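The cells described here were 66 astroglia chosen by their counts of Nkx2-1, Gabrg1 and Folh1, out of 18390 cells kept from 4 droplet libraries of the mouse forebrain. A cell counted as astroglia when it held 5 or more unique molecular identifiers (UMIs, the counted RNA molecules) of Slc1a2, Slc1a3 and Aqp4 together, and 6156 cells did. A cell was then selected when its UMIs of Nkx2-1, Gabrg1 and Folh1 summed to 3 or more and to over 2 times both the sum of Crym, Gdf10 and Cxcl14 and that of Igfbp2, Islr and Hs3st3a1. It also held at most 1 UMI of Thbs4 and Ecel1, at most 1 of Dcx and none of Top2a, Mki67 or Frzb. The selected cells were 1.07% of the astroglia (95% exact Clopper-Pearson interval 0.830 to 1.36). Because these counts chose the cells, their difference from other astroglia is described and not tested.

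Astrocytes keep a regional identity from the part of the embryonic neural tube in which they arise. Nkx2-1 is a homeodomain transcription factor of the ventral forebrain and hypothalamus, whereas Lhx2 and Emx2 are transcription factors of the developing telencephalon. Astrocytes also sense and clear GABA: Gabrg1 encodes the γ1 subunit of the ionotropic GABA-A receptor, Gabbr2 a subunit of the metabotropic GABA-B receptor, and Slc6a11 encodes the GABA transporter GAT-3. Folh1 encodes glutamate carboxypeptidase, which cleaves the transmitter NAAG, and Agt encodes angiotensinogen, the precursor of the angiotensin peptides, which astrocytes are the main brain cells to make.

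All mice carried the TiCY alleles, in which tamoxifen lets Tlx-CreERT2 turn on the fluorescent protein eYFP in neural stem cells that express Tlx and in their progeny (1 mg, 2 doses a day on 3 days). WT young mice were 16 weeks old (tamoxifen at 10 weeks, chase of 6 weeks) and WT old mice 80 weeks (71 weeks, 9 weeks). IFNAGR KO mice, which lack functional Ifnar1 and Ifngr1, the receptors of type-I and type-II interferon, were 16 weeks old in the KO young group (7 weeks, 9 weeks) and 92 to 105 weeks in the KO old group (85 and 98 weeks, 9 weeks, which does not add up to the stated age). Cells negative for CD45, Ter119 and O4 were sorted from the ventricular-subventricular zone (vSVZ) as eYFP+ and as GLAST+, and from a pool of olfactory bulb, rostral migratory stream and striatum (RoB) as eYFP+ and as eYFP- with low PSA-NCAM. GLAST is the product of Slc1a3, so the sort itself took astroglia from the vSVZ. Each group was 1 library from 2 mice, so differences between groups rest on single libraries, have no replicate check and cannot be told apart from differences between reactions.

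The 4 libraries held 27096070 to 78028524 UMIs, and kept cells had a median of 5067 UMIs in WT young and 7091 to 7437 in the other 3. Of 18360 kept barcode sequences, 30 occurred in more than 1 library. Values listed for 4 libraries follow the order young WT, old WT, young KO, old KO. The selected cells numbered 12, 16, 17 and 21. Their median depth was 5299.5 UMIs, against 7196 in the 3302 Crym-Gdf10-selected and 7198.5 in the 194 Igfbp2-Islr-selected astroglia, which were chosen by the mirrored rules. None was a predicted doublet. Levels below are UMIs summed over cells and given as counts per 1000000 (CPM) within the set or library, and intervals are 95% exact Poisson intervals for sums and Clopper-Pearson intervals for shares, which cover counting error only.

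**Figure D1:**
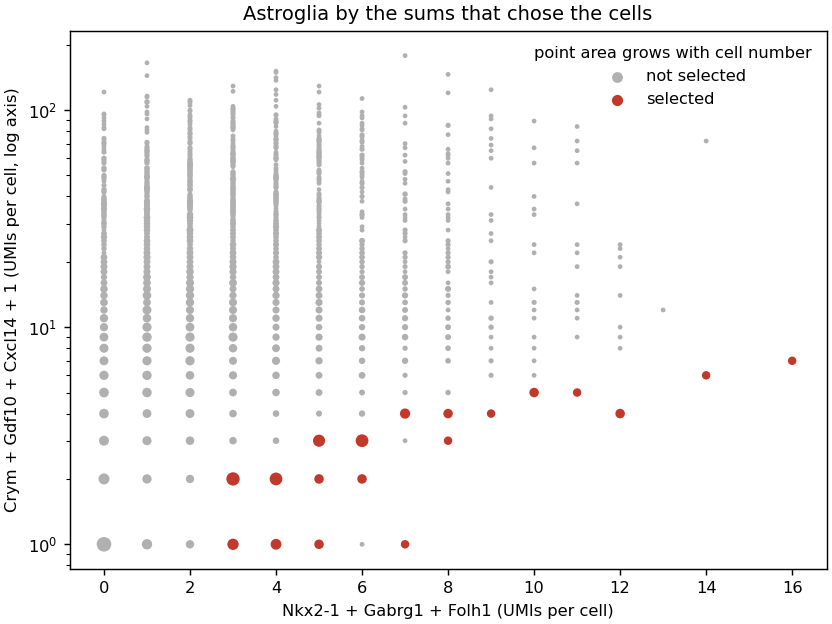
Every combination of the 2 sums of UMIs per cell seen in the astroglia with at most 1 UMI of Thbs4 and Ecel1, with Nkx2-1 + Gabrg1 + Folh1 on the horizontal axis and Crym + Gdf10 + Cxcl14 + 1 on a logarithmic vertical axis. Red points held the 66 selected cells, at the lower right edge of a continuous cloud of 5199 cells, and point area grows with the number of cells.

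The label of these cells rests on Nkx2-1, and the data bore it out only in part. Of the 367 UMIs that chose them, 289 were of Gabrg1 (78.7%), 59 of Folh1 (16.1%) and 19 of Nkx2-1 (5.18%). Gabrg1 (chromosome 5, 70751047 to 70842617 on the minus strand of GRCm38) was detected in 64 of the 66 cells and Folh1 (chromosome 7, 86718977 to 86775943, minus strand) in 37. Nkx2-1 (chromosome 12, 56531958 to 56536908, minus strand) was detected in 14, and 22 cells were chosen on Gabrg1 alone. They are therefore called Gabrg1-selected astroglia below.

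An Nkx2-1 UMI was found in 21.2% of the Gabrg1-selected astroglia (12.1 to 33.0), in 2.21% of Crym-Gdf10-selected astroglia, and in none of the 194 Igfbp2-Islr-selected cells, the 176 Thbs4-Ecel1-selected cells or 326 cells with 5 or more UMIs of microglial markers, which should lack the gene. With every cell thinned to 2000 UMIs the shares were 12.3% and 1.16% in the first pair. Conversely, 156 astroglia held an Nkx2-1 UMI and 8.97% of these were selected. Nkx2-1 was part of the rule, and the rules of the other astroglial sets limited its sum with Gabrg1 and Folh1. The differences in Nkx2-1 shares between these sets therefore partly restate the selection. Gabrg1 was a widespread transcript of the astroglia: it was seen in 77.0% of Crym-Gdf10-selected cells and in none of the microglial-marker cells. The fourth marker of the label, Gabbr2, was not part of the rule, was detected in 49 selected cells, and reached 281 CPM against 143 CPM in Crym-Gdf10-selected and 31.9 CPM in Igfbp2-Islr-selected astroglia.

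By library Nkx2-1 was at 18.3, 34.1, 66.8 and 55.8 CPM in the selected cells. Gabrg1 was at 859, 863, 794 and 565 CPM, and Gabbr2 at 256, 329, 259 and 279 CPM. Nkx2-1 and Gabrg1, which the rule used, and Gabbr2, which it did not, were above their level in Crym-Gdf10-selected cells in each of the 4 libraries. For Gabbr2 the fold was 0.95 on the log2 scale (log2 of CPM plus 5, used for every fold below).

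Among the astroglia that reached the sum of 3, what separated these cells from the rest was mostly the ratio to the Crym sum. Of the 5199 astroglia with at most 1 UMI of Thbs4 and Ecel1, 1891 reached the sum of 3, and 1809 of them were left out because that sum was not over 2 times the UMIs of Crym (a thyroid hormone-binding crystallin), Gdf10 (a ligand of the TGF-β family) and Cxcl14 (a chemokine). Just inside the limit, the 16 cells with a sum of exactly 3 held Agt at 1056 CPM and Gabbr2 at 232 CPM, and 4 of them had an Nkx2-1 UMI. Just outside it, 25 cells with a sum of 2 that met both ratios held Agt at 191 CPM and Gabbr2 at 76.3 CPM, with Nkx2-1 in 1 cell. A further 19 cells, left out because their sum was exactly 2 times the Crym sum, held Agt at 492 CPM and Gabbr2 at 369 CPM, with Nkx2-1 in 3 cells. In the rule sums the limits cut through a continuous range of cells. Agt was lower in both groups just outside, while Gabbr2 was lower in the first and higher in the second.

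The Gabrg1-selected astroglia were a mixture, and Agt divided them. Agt (chromosome 8, 124556534 to 124569706, minus strand) was absent from 17 of the 66 cells and reached 49.9 UMIs per 10000 in the highest. No cell lay between 7.42 and 12.4 per 10000. A limit of 10 per 10000, set after these values were seen and therefore given no test, left 31 Agt-rich cells (median 28.1 per 10000) and 35 Agt-poor cells. Both kinds came from every library: the Agt-rich cells numbered 5, 6, 10 and 10 and the Agt-poor cells 7, 10, 7 and 11. Their median depths were close, at 5260 and 5396 UMIs. Agt-rich cells were 47.0% of the selected cells (34.6 to 59.7), against 2.18% of Crym-Gdf10-selected, 0.515% of Igfbp2-Islr-selected and 6.33% of the 2418 unassigned astroglia.

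**Figure D2:**
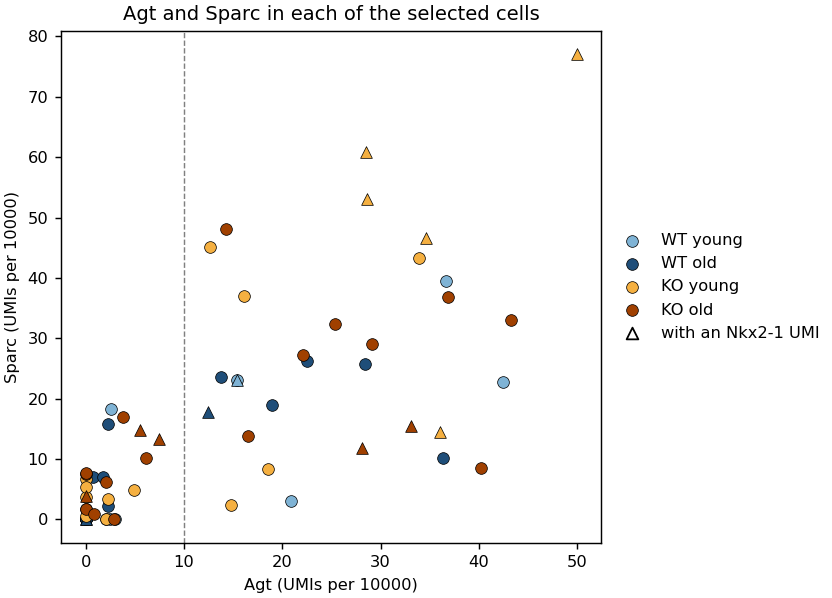
Agt against Sparc in each of the 66 selected cells, both in UMIs per 10000 of the cell, coloured by library, with triangles for cells holding an Nkx2-1 UMI and a dashed line at the Agt limit of 10. The 31 cells right of the line all held Sparc, and the 35 left of it, 17 of them without any Agt, lay below 20 per 10000 for Sparc.

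The genes that went with Agt were named by size of fold among genes with a UMI in 10 or more cells of the set. Sparc, a secreted matricellular glycoprotein, was at 2861 CPM in Agt-rich (2603 to 3137) and 422 CPM in Agt-poor cells (342 to 515), a ratio of 6.78, and was seen in all 31 Agt-rich and 22 Agt-poor cells. On the log2 scale this fold was 2.75, and 1.98 with the Agt limit at 20 per 10000. By library it was at 2243, 2078, 3706 and 2541 CPM in Agt-rich cells, and at 202, 386, 305 and 651 CPM in Agt-poor cells. Each Agt-rich sum therefore lay above every Agt-poor sum, but Sparc was picked by its fold and the share of all genes with such a separation was not counted. Itih3, a heavy chain that binds hyaluronan in the extracellular matrix, followed with 1434 against 157 CPM. Igsf1, an immunoglobulin-superfamily membrane protein, was at 246 against 17.4 CPM and was seen in 17 Agt-rich and 3 Agt-poor cells. Nkx6-2, a homeodomain factor of the ventral neural tube, was at 410 against 21.8 CPM, in 15 and 4 cells. With the limit at 20 its fold on the log2 scale was 3.02 in place of 3.96, and that of Lhx2, described next, -5.92 in place of -3.92.

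Several genes of the opposite pattern encode transcription factors. Lhx2, a LIM-homeodomain factor, was at 18.9 CPM in Agt-rich (3.91 to 55.4) and 357 CPM in Agt-poor cells (284 to 443), and was detected in 2 of 31 and 23 of 35 cells. Hopx, a small homeodomain protein, was at 37.9 against 322 CPM, and Meis2 at 50.5 against 200.2 CPM. All 3 were lower in the Agt-rich cells of each library. Otx2, a homeodomain factor, was seen in 6 Agt-rich cells and in none of the Agt-poor cells.

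Over all genes at 50 CPM or more on either side and not used by the rules, 9.58% were higher and 13.8% lower in Agt-rich cells by over 1 on the log2 scale. Against this background, 1 of the 9 measurable regional transcription factors was higher (Nkx6-2) and 5 were lower, Lhx2, Meis2 and Hopx among them, with a median of -1.25 against -0.08 over all genes. Apart from Nkx2-1, which the rule used, the rest of the 45 listed factors were under 50 CPM in both sets. Lhx6, Lhx8, Isl1, Six6 and Rax had no UMI in any of the 66 cells.

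In the hedgehog pathway, whose receptor gene Ptch1 is also a transcriptional target of the signal, 3 of 5 measurable genes were higher in Agt-rich cells and none lower, with a median of 1.62. Ptch1 was at 890 CPM (750 to 1050) against 257 CPM (196 to 331). The ratio was 3.47, and Ptch1 was higher in Agt-rich cells of each library, at 528, 742, 1071 and 881 against 76, 258, 203 and 391 CPM. Smo, the membrane transducer, was at 56.8 against 13.1 CPM. Gli1, a transcription factor induced by the signal, was at 50.5 against 13.1 CPM, from 8 and 3 UMIs in only 6 and 1 cells. Its fold, which is the median of 1.62, was positive in 2 of the 4 libraries, so the list rests mainly on Ptch1. Gas1, a co-receptor, was at 152 against 261 CPM. The ligand gene Shh had no UMI.

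Of the GABA genes, 3 of 9 measurable genes were higher in Agt-rich cells (Gabbr2 and Slc6a11 among them), none was lower, and the median was 0.39. Slc6a11 was at 1932 against 653 CPM, and by library at 2111, 1514, 1516 and 2684 against 354, 1030, 356 and 769 CPM. Gabbr2 was at 461 against 157 CPM. Gabrg1 itself, which chose nearly all of the cells, differed less, at 859 against 666 CPM. Gabrb1, a β subunit of the GABA-A receptor, was at 556 against 583 CPM.

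Of the channel, gap junction and ion transport genes, 5 of 16 were higher in Agt-rich cells, namely Kcnj16, Kcnd2, Gjb6, Gjb2 and Slc4a4, and Kcnk1 was lower. Gjb6 encodes the gap junction protein connexin 30 and was at 928 against 274 CPM, while Gja1, which encodes connexin 43, was at 183 against 209 CPM. Kcnd2, the A-type potassium channel Kv4.2, was at 183 against 21.8 CPM, and Slc4a4, a sodium bicarbonate cotransporter, at 3429 against 1667 CPM. Aqp4, the water channel, was at 821 against 692 CPM. Among glutamate genes, Slc1a2, the transporter GLT-1, was lower at 6239 against 10261 CPM (lower in each library, by 0.72 on the log2 scale), and Gria1, an AMPA receptor subunit, was at 183 against 43.5 CPM.

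Immediate early genes, which cells induce within minutes of stimulation, were lower in Agt-rich cells for 4 of 8 genes (Jun, Jund, Egr1 and Btg2) and higher for none, with a median of -1.16. Jun was at 50.5 against 631 CPM and Egr1 at 31.6 against 326 CPM. Of all Jun UMIs 62 of 153, and of Egr1 UMIs 51 of 80, lay in 2 Agt-poor cells without Aqp4, which held 17599 and 17589 UMIs. These 2 cells enter the Agt-poor sums only, and their part in the difference between the sets was not tested. In the remaining lists Gfap, an intermediate filament of astrocytes, and Fgf1 were higher in Agt-rich cells. Lower there were Vim, another intermediate filament, the matrix proteoglycan Vcan and the sterol synthesis genes Hmgcs1 and Idi1. Of the 15 Vcan UMIs in the selected cells, 8 lay in 1 cell. The other 19 of 21 lipid genes stayed within the limit.

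At the same Agt limit, most of the genes that differed within the selection differed in the same direction among astroglia outside it. Whether Agt also had a gap there was not tested. In all, 258 astroglia (4.19%) had Agt at 10 or more per 10000, and 31 of them were among the selected cells. Of the 227 others, 125 had a rule sum under 3 and 90 failed the ratio to the Crym sum, 79 of which would have passed it without Cxcl14. In these 227 cells, against the 5863 Agt-poor astroglia outside the selection, Sparc was at 2054 against 435 CPM, Itih3 at 1211 against 119 CPM, Nkx6-2 at 390 against 39.4 CPM and Ptch1 at 648 against 159 CPM. Of the 12 genes highest in Agt-rich selected cells 10 had a positive fold here, 8 of them over 1, and of the 12 lowest all had a negative fold, 7 of them below -1. Lhx2 was at 92.6 against 390 CPM. Nkx2-1 was detected in 12.8% of these 227 cells (8.73 to 17.8), in 29.0% of the Agt-rich selected cells (14.2 to 48.0), in 14.3% of the Agt-poor selected cells (4.81 to 30.3) and in 1.93% of the remaining astroglia. The rule used Nkx2-1, so the shares in the selected cells partly restate the selection.

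**Figure D3:**
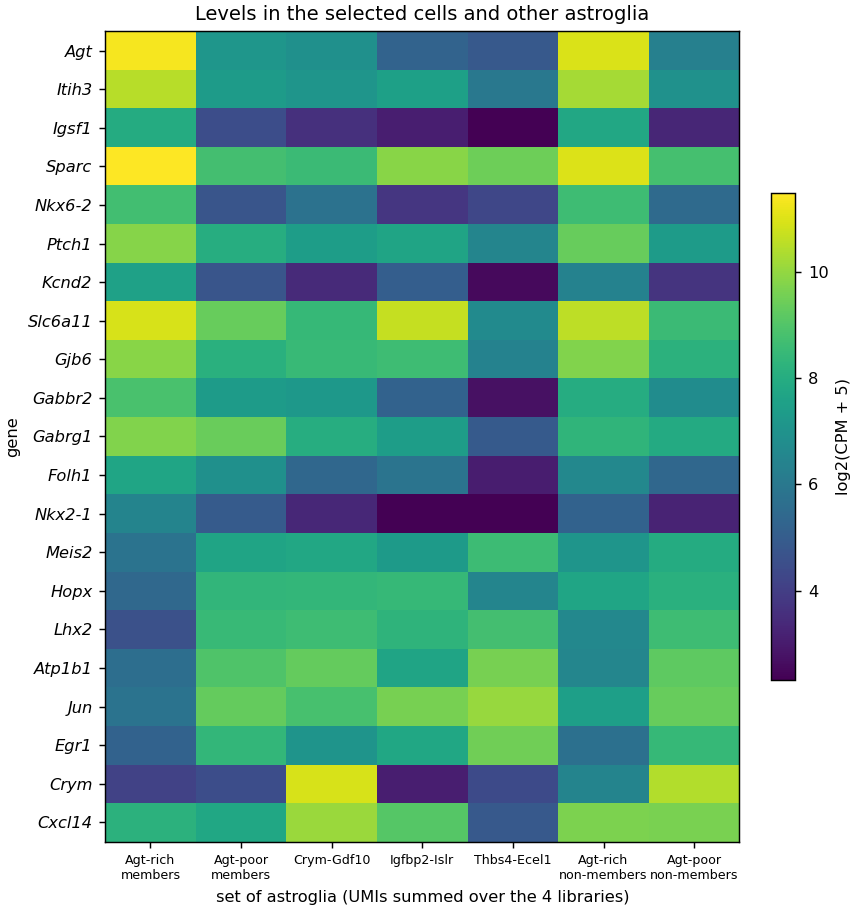
Levels of 21 genes (rows) in 7 sets of astroglia (columns), as log2 of CPM plus 5 of UMIs summed over the 4 libraries, from dark (low) to yellow (high). The columns of Agt-rich selected cells and Agt-rich cells outside the selection share high Agt, Itih3, Sparc, Nkx6-2 and Ptch1 and low Lhx2 and Atp1b1, while the Agt-poor selected cells lie nearer to Crym-Gdf10-selected astroglia in these genes but not in Crym (1941 CPM in the latter).

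Set against Crym-Gdf10-selected astroglia as a whole, the Gabrg1-selected cells showed few differences. Of 3612 genes at 50 CPM or more on either side and not used by the rules, 112 (3.1%) were higher and 70 (1.94%) lower by over 1, with a median of 0.01. The highest folds included genes that were also high in the Agt-rich cells: Igsf1 (3.28), Agt (3.25), Kcnd2 (3.11), Itih3 (2.31), Sparc (1.90), Nkx6-2 (1.77) and Slc6a11 (1.74). Agt was at 840, 897, 1395 and 1234 CPM in the 4 libraries, against 102 to 126 CPM in Crym-Gdf10-selected cells. Being on the same side in all 4 libraries was a condition for naming a gene here. Others among the 20 highest were Cit, a kinase of cytokinesis (2.66), Ucp2, a mitochondrial carrier (2.57), Erbb4, a neuregulin receptor (2.29), and Kcnj16, the potassium channel subunit Kir5.1 (1.81).

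A few of the 20 rested on few cells. Cntn1, a contactin, had 59.2% of its UMIs in 1 cell and a fold of 2.10 that was 0.94 without 9 cells set apart below and 1.00 without WT young, and the folds of Olig1 (1.95), Olig2 (1.91) and Marcks (1.70) were 1.32, 1.59 and 1.03 without them. Among the 10 lowest were Prss56, a serine protease (-2.81), C1ql3 (-2.18), Cox4i2, a cytochrome c oxidase subunit (-2.16), Sfrp1, a secreted Wnt antagonist (-2.13), Dbndd2, Ass1, argininosuccinate synthase (-1.91), Dusp1, a phosphatase of MAP kinases (-1.88), Amn1 (-1.86) and Fezf2, a forebrain transcription factor (-1.72). Fezf2 turned to 0.23, and Plce1 from 1.89 to -0.57, when cells were thinned to 2000 UMIs, so neither direction can be relied on. Thinning also shrank the folds of Marcks to 0.34 and Amn1 to -0.37, while those of Prss56 and C1ql3 grew to -5.2 and -3.97.

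By list, 2 of 11 measurable regional transcription factors were higher than in Crym-Gdf10-selected cells (Nkx6-2 and Olig2) and 1 was lower (Emx2, at 28.4 against 104 CPM), with a median of -0.63. Of 8 GABA genes 1 was higher (Slc6a11, at 1175 against 348 CPM), 3 of 15 channel and gap junction genes were higher (Kcnj16, Kcnd2 and Trpm3) and 1 of 3 hedgehog genes was higher (Ptch1, at 515 against 165 CPM). Among glutamate genes 1 of 9 was higher, namely Gria1, at 100.5 against 8.60 CPM. The 21 lipid and cholesterol genes (median 0.11), the 5 reactive astrocyte genes (-0.31) and the 3 MHC class I genes (0.06) held no gene beyond the limit in either direction. Of 16 secreted and matrix genes Sparc was higher and Hapln1 lower, and of 9 immediate early genes Dusp1 was lower. The Crym-Gdf10-selected cells were the deeper set, and with every cell thinned to 2000 UMIs 201 genes were higher and 194 lower.

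Against Igfbp2-Islr-selected astroglia, 161 of 3787 genes (4.25%) were higher and 188 (4.96%) lower. Agt led again (4.94), followed by Nkx6-2 (3.78), Igsf1 (3.76) and Gabbr2 (2.96). Slc6a11 did not set the Gabrg1-selected cells apart here, at 1175 against 1621 CPM. Of 15 regional transcription factors Nkx6-2 was higher and 6 were lower (Pax6, Zic1, Zic2, Sp8 and Tshz2 among them), and of 12 immediate early genes 7 were lower and none higher. The other genes among the 10 highest were Fmo1, a flavin monooxygenase (2.86), Spock2, Rhcg, an ammonium transporter, the nuclear receptor Nr2f1, Gm9925 and Thy1, at folds of 2.50 to 2.72 for the last 5.

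Across 16 sums, made of 4 astroglial populations in each of 4 libraries, the genes whose level followed Nkx2-1 most closely were Igsf1 (Pearson r = 0.95), Zfpm2 (0.92), Nkx6-2 (0.89), Heyl (0.89) and Itih3 (0.86), with Agt at 0.84. The rule used Nkx2-1 to choose 1 of these populations and Nkx2-1 was at 0 in another 2, so the values largely restate which genes were high in the selected cells. The sums also share libraries, and Nkx2-1 had only 19 UMIs in the selected cells.

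Antibody hashtags, which the rule did not use, gave the tissue of origin for 22 of the 66 cells. Of these 9 carried a RoB tag and 13 a vSVZ tag, a RoB share of 40.9% (20.7 to 63.6). The RoB share was 20.3% of 1347 called Crym-Gdf10-selected cells, 97.6% of 126 Igfbp2-Islr-selected cells and 0 of 74 Thbs4-Ecel1-selected cells, whose interval reaches 4.86%. Among Agt-rich selected cells 6 of 8 called cells were RoB, and among Agt-poor cells 3 of 14. In the 227 Agt-rich cells outside the selection 45 of 94 were RoB (47.9%, 37.5 to 58.4). All 8 called Agt-rich selected cells carried tags numbered 2, from 4 cells of WT old, 1 of KO young and 3 of KO old, whereas the 14 Agt-poor cells came from both mouse numbers (8 and 6). The part of the individual mice in the division was not tested, since no mouse had more than 7 called cells.

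The reporter transcript eYFP was found in 3 of the 66 cells (4.55%), with 1 UMI each in WT young, KO young and KO old. That share was below the 5.52% of the microglial-marker cells, which are outside the labelled lineage and had a median of 5260 UMIs, and so was read as background. In Crym-Gdf10-selected cells the share was 9.63%.

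By group, the selected cells were 0.847% of the WT young astroglia (0.438 to 1.47), 1.43% of the WT old (0.818 to 2.31), 0.817% of the KO young (0.477 to 1.31) and 1.37% of the KO old astroglia (0.847 to 2.08). Both old libraries were above both young ones, yet all 4 intervals overlapped. Over all astroglia the Agt-rich share was 1.98% (1.32 to 2.84), 5.17% (3.95 to 6.64), 4.18% (3.36 to 5.13) and 5.53% (4.44 to 6.79). WT young lay below the other 3, beyond counting error. WT young was also the library with the lowest median depth, and the part of depth was not tested. Sorted fractions were mixed within each library, and differences in their proportions cannot be told apart from differences in these shares.

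**Figure D4:**
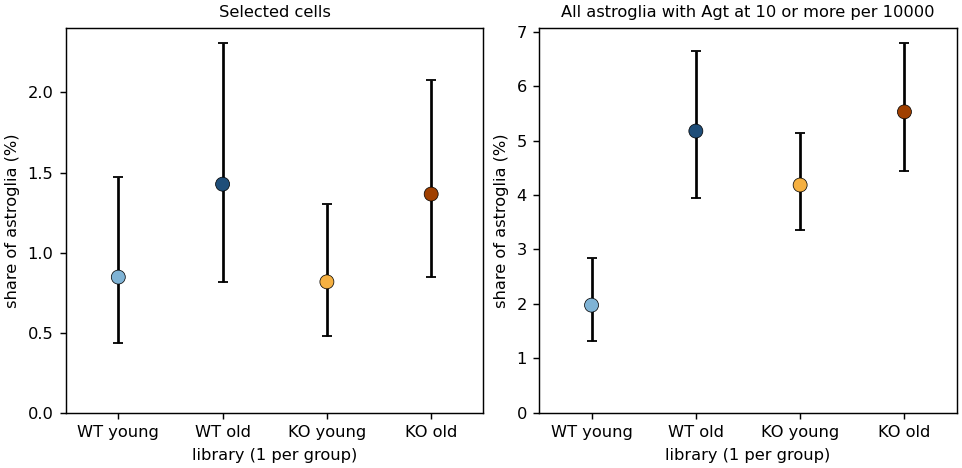
Share of astroglia per library (1 library per group), with the 66 selected cells on the left and all 258 astroglia with Agt at 10 or more per 10000 on the right, as points with 95% Clopper-Pearson intervals (vertical bars). The left intervals overlap throughout, and on the right WT young, at 1.98%, lies below the intervals of the other 3 libraries.

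The targeted receptor genes followed their labels in the selected cells. Ifngr1 had 5 UMIs in WT young (91.4 CPM, 29.7 to 213) and 11 in WT old (125 CPM, 62.4 to 224), and none in KO young or KO old, where 3 UMIs would have been 25.1 and 23.9 CPM. Ifnar1 had 1 and 4 UMIs in the WT libraries and none in the KO libraries, so its difference was not detectable at this depth. In Crym-Gdf10-selected cells Ifngr1 was at 100.2 and 92.1 CPM in WT and at 2.34 and 3.06 CPM in KO.

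The 40 measured core interferon-stimulated genes, which cells induce through these receptors, summed in the selected cells to 329 CPM (195 to 520), 466 CPM (334 to 632), 284 CPM (197 to 397) and 199 CPM (129 to 294). The interval of KO old lay below that of WT old, while those of both young libraries overlapped, as did those of young and old within each genotype. The Crym-Gdf10-selected cells stood at 515, 538, 342 and 429 CPM. Ifi27, a mitochondrial protein induced by interferon, held 8, 16, 5 and 9 UMIs, or 146, 182, 41.8 and 71.7 CPM. The 12 MHC class I genes, which present antigen and are induced by interferon, were at 347, 534, 301 and 406 CPM, and all 4 intervals overlapped.

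**Figure D5:**
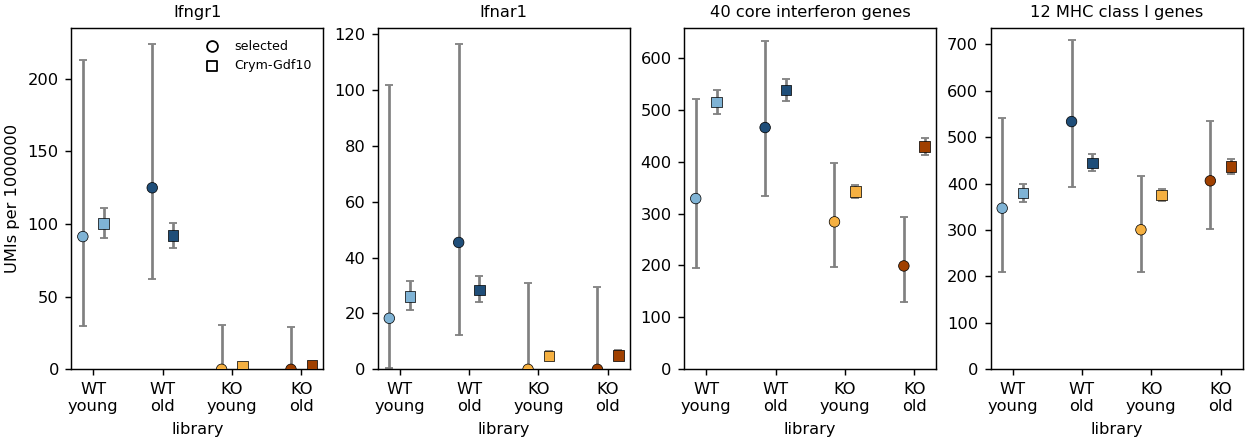
Ifngr1, Ifnar1, the sum of 40 core interferon genes and the sum of 12 MHC class I genes in UMIs per 1000000, by library, for the selected cells (circles) and Crym-Gdf10-selected astroglia (squares), with 95% Poisson intervals (bars). Ifngr1 is at 0 in both KO libraries of the selected cells, and their core interferon sum runs from 199 CPM in KO old to 466 CPM in WT old.

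Hedgehog genes summed to 603 CPM (415 to 847), 897 CPM (710 to 1118), 1027 CPM (854 to 1226) and 1083 CPM (909 to 1281) in the selected cells, against 463 to 561 CPM in Crym-Gdf10-selected cells. Immediate early genes were at 420 CPM in WT young (266 to 631) and at 1453 to 2351 CPM in the other 3, and Fos at 18.3, 943, 568 and 382 CPM. The Crym-Gdf10-selected cells of WT young were not low in immediate early genes, at 2097 CPM, within the 1759 to 2981 CPM of the other libraries. With 12 to 21 cells in a library, single cells weigh on such sums: the intervals do not cover the spread between cells.

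Markers of other cell types were checked over their whole lists. All 14 astrocyte markers were found, and their sum ran from 21157 to 26304 CPM across libraries, against 23077 to 26850 CPM in Crym-Gdf10-selected cells. The astrocyte list holds Slc1a2, Slc1a3 and Aqp4, whose summed counts chose the astroglia of both sets. This sum therefore partly restates the selection and is no independent check of identity. Microglial markers summed to 0 to 22.7 CPM with Cx3cr1, P2ry12 and Tmem119 at 0, and endothelial markers to 0 to 8.35 CPM with Pecam1, Cldn5 and Flt1 at 0. Ependymal markers ran from 39.8 to 167 CPM with 4 of 6 at 0, and oligodendrocyte markers from 22.7 to 159 CPM with Mog and Mobp at 0. Neuronal markers ran from 15.9 to 295 CPM with Nefl and Th at 0, neuroblast markers from 31.9 to 68.1 CPM, cycling markers from 0 to 66.8 CPM, tanycyte markers from 16.7 to 23.9 CPM with Rax, Adm and Scn7a at 0, olfactory ensheathing markers from 73.1 to 167 CPM and mural markers from 54.8 to 134 CPM. The cycling, neuroblast and ensheathing lists hold Mki67, Top2a, Dcx and Frzb, and the tanycyte list holds Crym (6 of its 8 UMIs), so the rule itself limited these sums. In Agt-rich against Agt-poor cells, ependymal markers were at 171 against 47.9 CPM, oligodendrocyte markers at 171 against 60.9 CPM, ensheathing markers at 177 against 91.4 CPM and mural markers at 158 against 82.7 CPM, and their part in the division was not tested.

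A few cells stood apart. The marker list of oligodendrocyte precursors held 39 UMIs, 38 of them in 1 Agt-poor cell of WT young with all 10 Pdgfra and all 23 C1ql1 UMIs, and 1 cell of WT old held 19 of the 21 UMIs of Syt1, a synaptic vesicle protein of neurons. Aqp4 was absent from 7 cells, all Agt-poor. The Agt-poor values above include these 7 cells, and their part in the differences between Agt-rich and Agt-poor cells was not tested. Leaving out these 7 and the 4 cells with 5 or more UMIs of another type's markers, 9 cells in all, left 57, 29 of them Agt-rich, in which Igsf1 had a fold of 3.42 against Crym-Gdf10-selected cells, Sparc 2.06, Nkx6-2 2.01 and Slc6a11 1.87. These folds were slightly larger than over all 66 cells.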

How the data were processed

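Per the methods, the authors removed index-hopped reads, then ran kallisto and bustools on the expression libraries, and CITE-seq-Count on the hashtags. The deposited files hold UMI counts per barcode and gene and hashtag read counts per barcode, neither filtered nor normalised. The genome build behind the counts was not given in the sources used here; 32235 of 32287 gene IDs were found in GENCODE vM21 (GRCm38), which gave positions. The series held 9 samples, of which 4 expression and 4 hashtag libraries were used, and 1 sample without a group label was not used. The submitters' processing notes also name Scanpy 1.6.0.

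Barcodes were kept with 1000 to 20000 UMIs, 100 to 6000 genes and under 10% mitochondrial UMIs. The members, gene lists and comparisons were chosen with earlier results of these data known. Counts were summed per set and library, scaled to 1000000 and compared as log2 of CPM plus 5 among genes at 50 CPM or more on either side. Genes named were the rule genes, the 20 highest and 10 lowest against Crym-Gdf10-selected cells and the 10 highest against Igfbp2-Islr-selected cells (same side in all 4 libraries), genes of fixed lists, and the 12 highest and 12 lowest between Agt-rich and Agt-poor cells, a rule added after values were seen. Hashtags were called with a multinomial mixture of 5 components started from near-empty barcodes, doublets were predicted with Scrublet in scanpy 1.11.5, and intervals came from scipy 1.17.1.

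Tests per mouse for age, genotype and tissue, planned with at least 10 selected cells per mouse, were not run, because mice had 0 to 7 selected cells with a hashtag. Total UMIs per library ranged from 27096070 to 78028524, and 12 to 21 selected cells per library set the precision. A few genes that the naming rule or the lists cover are not reported here by name.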

Additional observations from a re-analysis of the deposited data

Results flagged for a closer look

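Hashtag reads that matched no tag, a signal outside the measurements used above, were higher in 1 library. The median selected cell of WT young held 37 such reads, against 8.5 for WT old, 6 for KO young and 8 for KO old cells. In the Crym-Gdf10-, Igfbp2-Islr- and Thbs4-Ecel1-selected cells of WT young the medians were 34 to 43, and the hashtag library of that group is labelled as holding further content. Of the 12 selected cells of WT young 2 received a tissue call.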

How the results depend on the processing

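No tests were run, so the limits are those of counts and cells. No paired analysis was possible because equal tag numbers in 2 groups mark separate mice, and no mouse had 10 selected cells. The other settings listed for those tests (other normalisations, DESeq2, other cell minimums, 1 tissue at a time, a replicate block) were therefore not run.

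The rule's threshold set how many cells there were: 91 at a sum of 2, 66 at 3 and 37 at 5, and 69 when cells were thinned to 2000 UMIs. At 5 the share of astroglia was 0.714% in WT old and 0.65% in KO old. At 2 the eYFP level was 28.9 CPM, against 7.73 CPM. Thinning gave 201 genes higher and 194 lower against Crym-Gdf10-selected cells, and 356 and 409 against Igfbp2-Islr-selected cells. An Agt limit of 20 per 10000, tried after the values were seen, left 20 Agt-rich cells, and the Agt-rich minus Agt-poor fold of Sparc went from 2.75 to 1.98, that of Nkx6-2 from 3.96 to 3.02 and that of Lhx2 from -3.92 to -5.92. Leaving out 1 library gave 112 to 146 higher and 86 to 97 lower genes against the first set, 173 to 207 and 221 to 235 against the second. Leaving out the hashtag-called cells of 1 mouse gave an eYFP level of 7.87 to 8.45 CPM and a RoB share of 33.3% to 45.0%. The RoB share was 22.2% of 9 called cells at a sum of 5, 34.4% of 32 at a sum of 2, and 53.3% of 15 under a stricter hashtag call. Folds against Crym-Gdf10-selected cells turned for Plce1 (-0.57) and Fezf2 (0.23) when thinned, and that of Fmo1, 0.29, ran from -0.10 (without WT old) to 0.52 when 1 library was left out. Of the other recomputed folds of single genes 18 moved by over 1 SD of that fold between the 4 libraries and 293 by less. Under this wide tolerance Cntn1 still ran from 0.94 to 2.55. Most of the 18 moves came with thinning to 2000 UMIs.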
